A study of Mus musculus with 6 samples.

Results

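The genes described here take up retinol (vitamin A) and make, bind, sense and destroy retinoic acid, its active form. They are Rdh10, Dhrs3, Aldh1a1, Aldh1a2, Aldh1a3, Stra6, Crabp1, Rarb and Cyp26b1. They were picked by name, and all 9 were among the 15238 genes of the deposited count table. RNA was sequenced in bulk from intestinal fibroblasts of Balb/c pups at postnatal day 9, sorted as podoplanin-positive cells without CD45, EpCAM or CD31. The sort therefore aimed at stroma free of leukocytes, epithelium and endothelium. There were 3 DdblGata1 libraries (replicates 4, 9 and 10) and 3 wild-type libraries (replicates 1, 3 and 4). DdblGata1 mice carry a germline deletion in the promoter of Gata1, a blood cell transcription factor, and lack eosinophils. The deletion is present in the fibroblasts too and from conception on, so it is not a depletion timed to this age. The labels do not say whether a library is 1 pup or a pool, so p-values measure the spread between these libraries, which may be technical.

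Retinol enters some cells through the membrane receptor STRA6. RDH10 oxidises it to retinaldehyde, DHRS3 turns retinaldehyde back into retinol, and the ALDH1A enzymes oxidise retinaldehyde to retinoic acid in a step that is not reversed. Retinoic acid binds receptors of the RAR family paired with RXR on DNA, CRABP proteins hold it in the cytosol, and CYP26 enzymes destroy it. In the gut, stromal cells and dendritic cells are known sources of retinoic acid, which directs lymphocytes to home to the intestine.

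The libraries held 28110454 to 30993472 counts in DdblGata1 and 30210644 to 31210800 in wild-type. All 9 fibroblast markers listed (Pdpn, Pdgfra, Col1a1, Col1a2, Col3a1, Dcn, Lum, Thy1 and Vim) were in the table. Their summed level, in TPM (an abundance scaled for transcript length and library size), was 57504 to 70223 in DdblGata1 and 47758 to 70204 in wild-type libraries. Col3a1 alone gave 24077 TPM or more in each library, so the sum says little of the other markers. Of the 9, 7 had a positive and 2 a negative log2 fold change. In counts scaled for library size, 2 were higher without overlap, as were 8.98% of all genes, and 0 were lower. Thy1 ran from 279 to 529 TPM in DdblGata1 and from 121 to 166 TPM in wild-type libraries. Pdpn, used in the sort, ran from 46.7 to 61.1 and from 26.2 to 45.8 TPM. The 10 epithelial markers summed to 701 to 1596 TPM in DdblGata1 and to 614 to 3963 TPM in wild-type libraries, where wild-type replicate 1 was the highest of all. Of 8 eosinophil markers, Epx and Ear6 had 0 counts in all 6 libraries, and the list summed to 0.541 to 2.81 TPM in DdblGata1 and 1.28 to 2.50 TPM in wild-type. Only 1 of the 8 was among the genes tested. It was lower in DdblGata1 without overlap, as were 7.34% of all genes, with a log2 fold change of -1.65 (edgeR adjusted p 0.452). DESeq2 gave it no adjusted p. In bulk RNA of this kind, fewer cells of a type and less RNA per cell cannot be told apart.

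Per length, the fibroblasts expressed the retinoic acid synthases far above the genes that import retinol or bind or destroy retinoic acid. Over the 6 libraries, the TPM level averaged 142 ± 10.2 (SD, n = 6) for Aldh1a2, 126 ± 12.6 for Aldh1a1 and 81.7 ± 19.8 for Aldh1a3. Aldh1a2 was above Aldh1a1, and Aldh1a1 above Aldh1a3, in 5 of 6 libraries each, with overlapping ranges. Dhrs3 followed at 44.4 ± 9.90 TPM and Rdh10 at 36.6 ± 5.25 TPM, again in this order in 5 of 6 libraries and overlapping. Rarb averaged 10.8 ± 2.24 TPM and Cyp26b1 5.28 ± 2.34 TPM, with Rarb the higher in each of the 6 libraries although their ranges over the libraries overlapped. Stra6, at 3.31 ± 2.57 TPM, and Crabp1, at 3.0 ± 1.93 TPM, did not differ beyond their spread. The ranges left a gap below Aldh1a3 and another below Rdh10.

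Setting the genotypes against each other asks what differs in this stroma when eosinophils are lacking. By edgeR's quasi-likelihood test, 0 of the 9 genes passed an adjusted p of 0.05, as did 0 of all 15238 genes (0%). At an unadjusted p under 0.05, 1 of the 9, Aldh1a3, was lower and 0 were higher, where 4.23% of all genes were lower and 6.03% higher (10.3% in all). With 1 library left out, edgeR gave a count of 0 when that was DdblGata1 replicate 9 or wild-type replicate 4, and of 2 when it was DdblGata1 replicate 4 or wild-type replicate 1. DESeq2 passed 1.4% of all genes and 0 of the 9, and limma-voom passed 0 genes. Fold changes are given as log2 of DdblGata1 over wild-type, so that a negative one is lower in DdblGata1. They were negative for 5 of the 9 genes and for 50.7% of all genes, and their median was -0.07 for the 9 and -0.0066 for all. Values of 3 genes, Aldh1a2, Aldh1a3 and Rdh10, were lower without overlap between the groups, as were those of 7.34% of all genes; 0 of the 9 were higher without overlap, against 8.98% of all genes. Among all genes, 16.3% did not overlap in either direction.

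**Figure D1:**
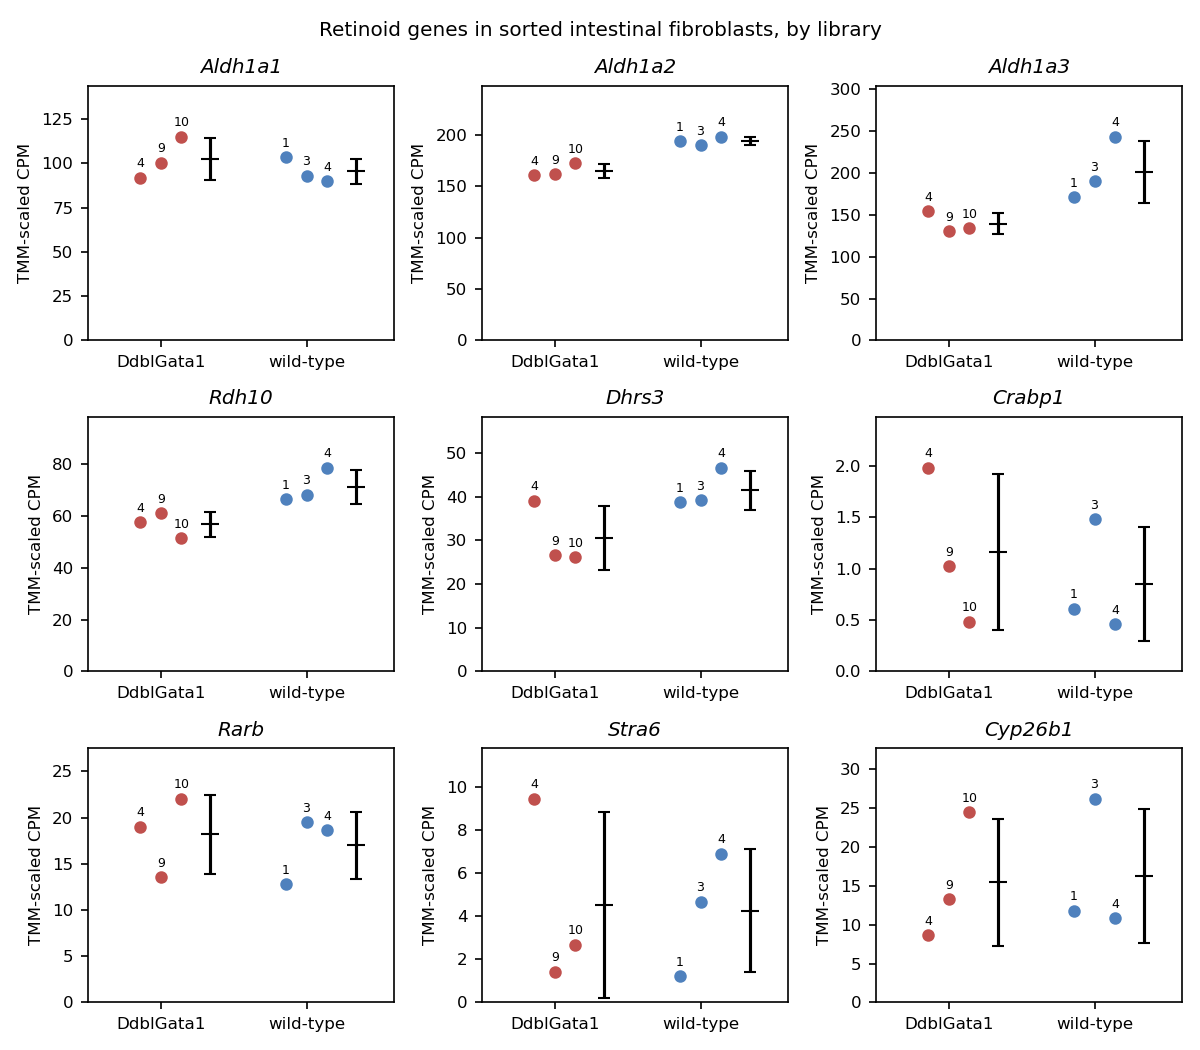
TMM-scaled CPM (vertical axes from 0) of the 9 genes in each library, with DdblGata1 at left and wild-type at right, points numbered by replicate and bars giving mean and SD (n = 3). Aldh1a2, Aldh1a3 and Rdh10 were lower in each DdblGata1 library than in any wild-type library, while the other 6 genes overlapped.

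Rdh10, on chromosome 1 (GRCm38, 16105774 to 16133734, plus strand), carries out the limiting oxidation of retinol to retinaldehyde. It had 57.6, 61.0 and 51.4 CPM (counts scaled for library size, with edgeR's TMM factors) in DdblGata1 replicates 4, 9 and 10, against 66.4, 68.2 and 78.4 CPM in wild-type replicates 1, 3 and 4. Every DdblGata1 library was below every wild-type library, with the nearest pair at 61.0 and 66.4 CPM. The log2 fold change was -0.33 ± 0.14 (SE; 95% interval -0.65 to 0.00; edgeR adjusted p 0.486), which did not pass the test.

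The 2 annotated transcripts of Rdh10 divided the gene differently in the genotypes. Rdh10-201, which codes for the protein, was estimated at 24.3, 22.7 and 19.9 TPM in DdblGata1 replicates 4, 9 and 10, against 28.1, 27.6 and 34.8 TPM in wild-type replicates 1, 3 and 4. Rdh10-202, annotated as a transcript with a retained intron, had 10.3, 13.7 and 9.50 TPM in DdblGata1 and 8.69, 8.95 and 10.8 TPM in wild-type libraries. The coding transcript was lower without overlap and the other one overlapped. Rdh10-201 therefore held 62.3% to 70.3% of the gene's TPM in DdblGata1 and 75.5% to 76.4% in wild-type libraries. These shares were not tested. Since kallisto estimates how reads divide between transcripts that share sequence, they carry an error that the files do not give.

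Dhrs3 (chromosome 4, 144892827 to 144928209, plus strand) encodes the reductase that works against RDH10, and retinoic acid is known to induce it. Its level was 39.1, 26.6 and 26.1 CPM in DdblGata1 replicates 4, 9 and 10, against 38.7, 39.1 and 46.6 CPM in wild-type replicates 1, 3 and 4. On this scale DdblGata1 replicates 9 and 10 were below all wild-type libraries, whereas DdblGata1 replicate 4 lay within the wild-type range. With a log2 fold change of -0.44 ± 0.20 (SE; 95% interval -0.90 to 0.02), Dhrs3 did not pass (edgeR adjusted p 0.493). Without DdblGata1 replicate 4 the log2 fold change was -0.65, which did not pass in edgeR (adjusted p 0.180). In DESeq2 the adjusted p of Dhrs3 was 0.0143 without that library, a fit that called 1025 of 15238 genes, and 0.415 with all 6 libraries, which called 214. The place of DdblGata1 replicate 4 depended on how transcripts were turned into gene counts. Summed transcript counts were 881, 915 and 864 in DdblGata1 replicates 4, 9 and 10, against 1205, 1354 and 1235 in wild-type replicates 1, 3 and 4. These did not overlap. On those sums the log2 fold change was -0.45 (unadjusted p 0.0121 and adjusted p 0.334 by edgeR).

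Dhrs3 was spread over several transcripts, 4 of them above 1 TPM on average. Dhrs3-207, the main one, had 18.3, 16.7 and 14.5 TPM in DdblGata1 replicates 4, 9 and 10, against 24.3, 21.5 and 24.7 TPM in wild-type replicates 1, 3 and 4. This transcript was lower without overlap, DdblGata1 replicate 4 included. Dhrs3-205, at 19.3 TPM in DdblGata1 replicate 4 and 3.89 and 6.39 TPM in DdblGata1 replicates 9 and 10, against 9.94, 3.01 and 19.8 TPM in wild-type replicates 1, 3 and 4, was highest in the library numbered 4 of each genotype.

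**Figure D2:**
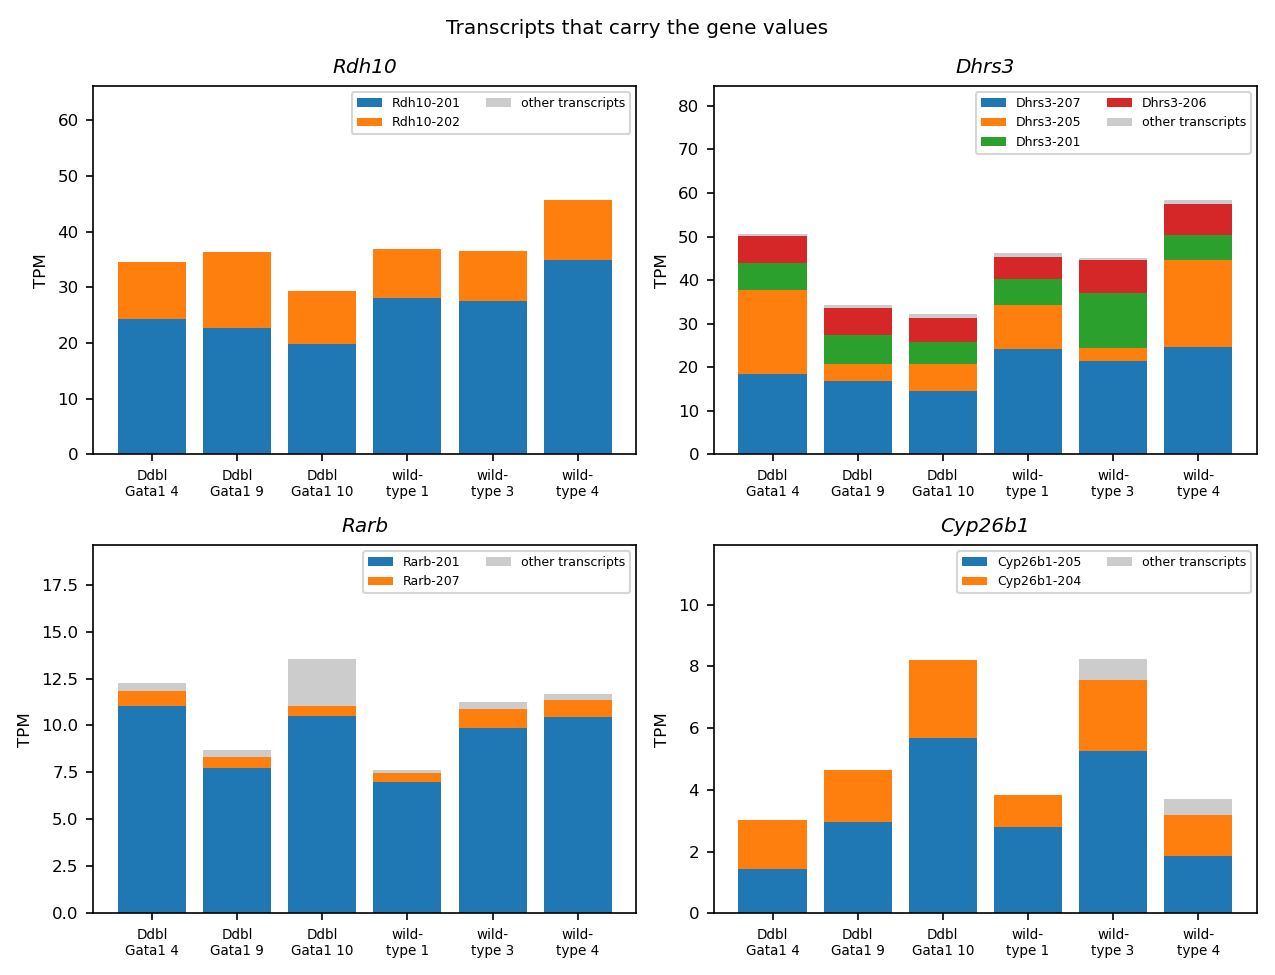
Estimated level of each transcript (TPM, stacked from 0) of Rdh10, Dhrs3, Rarb and Cyp26b1 in the 3 DdblGata1 libraries, at left in each panel, and the 3 wild-type libraries. The Rdh10-201 segment is shorter in every DdblGata1 library than in any wild-type library, and Rarb-201 is the main Rarb transcript in each library, at 77.8% of the gene's TPM or more.

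Of the retinaldehyde dehydrogenases, Aldh1a3 differed most between the genotypes. The gene lies on chromosome 7 (66390890 to 66427517, minus strand), and its product oxidises retinaldehyde to retinoic acid. It had 154, 131 and 134 CPM in DdblGata1 replicates 4, 9 and 10, against 171, 190 and 243 CPM in wild-type replicates 1, 3 and 4. All DdblGata1 libraries were below all wild-type libraries, and wild-type replicate 4 stood above its group. The log2 fold change was -0.53 ± 0.17 (SE; 95% interval -0.92 to -0.14; unadjusted p 0.0142 and adjusted p 0.433 by edgeR), which ranked 499 by p among all genes. Leaving out DdblGata1 replicate 9 gave an unadjusted edgeR p of 0.0534 (log2 fold change -0.50), and leaving out wild-type replicate 4 gave 0.0639 (-0.37). One transcript, Aldh1a3-201, held 98.3% to 99.8% of the gene's TPM in every library, so the gene's value is almost wholly that of 1 transcript. Of the 4601 words of 31 bases in all 5 annotated Aldh1a3 transcripts together, 99 also occur in other genes, Casc4 among them, and 0 in the other genes described here. Which of the transcripts hold those 99 was not determined.

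Aldh1a2 (chromosome 9, 71215789 to 71296243, plus strand) encodes the enzyme that makes most retinoic acid in the mouse embryo, and mesothelium is a further known source of its RNA. The values were 161, 161 and 172 CPM in DdblGata1 replicates 4, 9 and 10, against 194, 190 and 198 CPM in wild-type replicates 1, 3 and 4. The groups did not overlap and each was tight, with SDs of 6.45 CPM in DdblGata1 and 4.04 CPM in wild-type. The difference itself was small, a log2 fold change of -0.23 ± 0.12 (SE; 95% interval -0.52 to 0.05; edgeR adjusted p 0.531), and did not pass. All 9 mesothelial markers were in the table. Of these, 8 had a positive log2 fold change (median 0.28), where 50.7% of all genes had a negative one. Only 1 of the 9, Wt1, was higher without overlap, near the 8.98% of all genes that were. Wt1 had 36.5, 33.8 and 46.9 TPM in DdblGata1 replicates 4, 9 and 10, against 17.0, 22.8 and 18.0 TPM in wild-type replicates 1, 3 and 4. The summed level of the 9 markers overlapped, at 256 to 431 TPM in DdblGata1 and 261 to 343 TPM in wild-type libraries. Krt19, also an epithelial keratin, gave 213 TPM in wild-type replicate 1. The part of mesothelium in the Aldh1a2 values was not tested.

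Aldh1a1, on chromosome 19 (20492715 to 20643465, plus strand), encodes a further dehydrogenase of the same reaction. It had 91.8, 100 and 115 CPM in DdblGata1 replicates 4, 9 and 10, against 103, 92.9 and 89.8 CPM in wild-type replicates 1, 3 and 4. The groups overlapped, with a log2 fold change of 0.10 ± 0.14 (SE; 95% interval -0.23 to 0.43; edgeR adjusted p 0.804). The interval leaves room for a modest change in either direction. Aldh1a1-201, the transcript of the downstream start, held 55.3% to 65.4% of the gene's TPM in DdblGata1 and 59.7% to 67.9% in wild-type libraries. Of 4934 words of 31 bases in all 6 annotated transcripts of Aldh1a1 together, 281 also occur in its neighbour in sequence Aldh1a7, and 0 occur in Aldh1a2 or Aldh1a3. Which of the Aldh1a1 transcripts hold those 281 was not determined. Aldh1a7 itself averaged 1.07 CPM in DdblGata1 and 1.30 CPM in wild-type libraries.

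Summed over the 3 dehydrogenases, the level was 334, 331 and 346 TPM in DdblGata1 replicates 4, 9 and 10, against 355, 337 and 394 TPM in wild-type replicates 1, 3 and 4. In TPM the sums overlapped, but TPM is not rescaled between libraries as the CPM are. Over all genes the median log2 fold change was 0.062 in limma on log2(TPM + 1), against -0.0066 in edgeR. In CPM, Aldh1a2 and Aldh1a3 were lower without overlap and Aldh1a1 overlapped, and their sum was not taken. The composition of the sum is unchanged by such rescaling. Aldh1a1 made up 36.8%, 40.1% and 42.2% of the sum in DdblGata1 replicates 4, 9 and 10, against 35.9%, 32.9% and 29.5% in wild-type replicates 1, 3 and 4. These shares were higher in DdblGata1 without overlap, narrowly so between DdblGata1 replicate 4 and wild-type replicate 1. Aldh1a2 held 39.3% to 40.2% in DdblGata1 and 40.4% to 41.8% in wild-type libraries, and Aldh1a3 held 18.5% to 23.2% in DdblGata1 and 22.4% to 30.1% in wild-type libraries. Shares of 1 sum are tied to each other, and they were not tested.

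**Figure D3:**
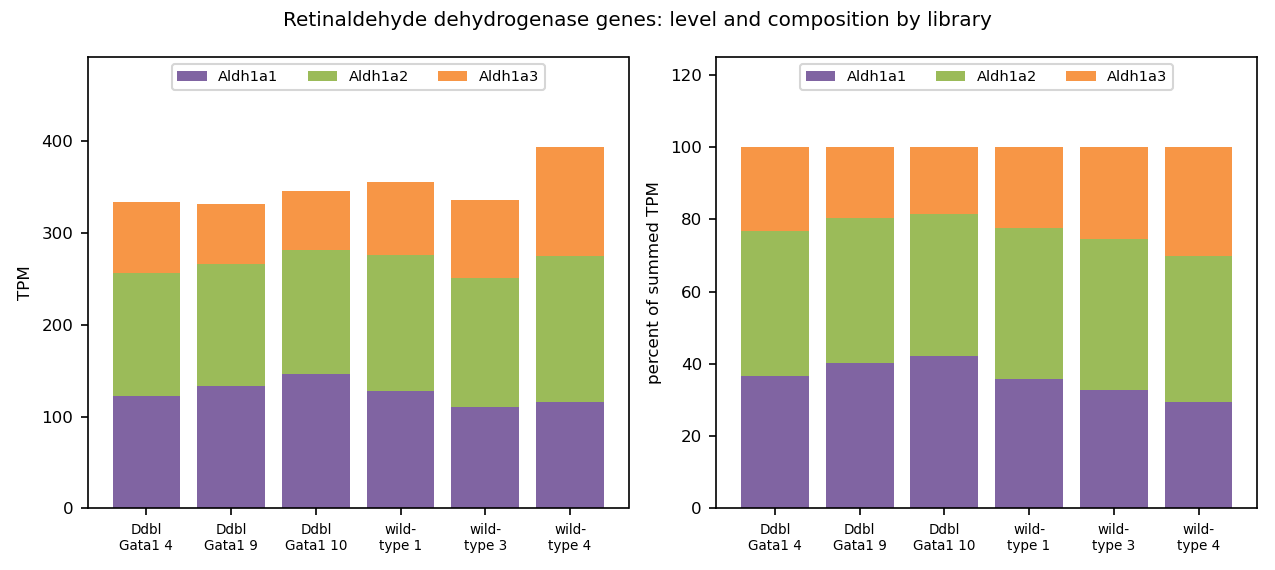
Aldh1a1, Aldh1a2 and Aldh1a3 in each library, as TPM (left, stacked from 0) and as percent of their sum (right), with the 3 DdblGata1 libraries left of the 3 wild-type libraries. The totals of 331 to 346 TPM in DdblGata1 and 337 to 394 TPM in wild-type overlap on this scale, which is not adjusted between libraries. The Aldh1a1 share is larger in every DdblGata1 library.

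The genes of uptake and binding were at the low end and varied strongly between libraries of 1 genotype. Stra6 (chromosome 9, 58063788 to 58153996, plus strand), the retinol importer, had 9.46, 1.42 and 2.68 CPM in DdblGata1 replicates 4, 9 and 10, against 1.22, 4.69 and 6.90 CPM in wild-type replicates 1, 3 and 4. DdblGata1 replicate 4 was the highest library and wild-type replicate 1 the lowest. The log2 fold change of 0.08 ± 0.78 (SE; edgeR adjusted p 0.974) has a 95% interval from -1.71 to 1.87, so a sizeable difference either way was not detectable with these libraries. Without DdblGata1 replicate 4 the log2 fold change was -1.06.

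The Stra6 value also depended on how transcripts were turned into gene counts. The deposited table gives 258, 43 and 83 counts in DdblGata1 replicates 4, 9 and 10, and 40, 136 and 211 in wild-type replicates 1, 3 and 4. Summing the deposited transcript counts instead gave 137, 60.0 and 47.0 in DdblGata1 and 55.0, 159 and 204 in wild-type libraries. DdblGata1 replicate 4 was the highest library in the table and the third on the sums. On those sums the log2 fold change was -0.69. The table's counts are scaled by transcript length, and a short transcript can then weigh heavily: Stra6-206 held 41.6% of the gene's TPM in DdblGata1 replicate 4 with 5.62 estimated counts, against 0% in wild-type replicates 1 and 4.

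Crabp1 (chromosome 9, 54764748 to 54773110, plus strand), a cytosolic binding protein of retinoic acid, had 1.98, 1.03 and 0.484 CPM in DdblGata1 replicates 4, 9 and 10, against 0.610, 1.48 and 0.458 CPM in wild-type replicates 1, 3 and 4. These are 15 to 54 counts a library in DdblGata1 and 14 to 43 in wild-type, and the groups overlapped. The log2 fold change was 0.45 ± 0.67 (SE; 95% interval -1.08 to 1.98; edgeR adjusted p 0.813). Leaving out DdblGata1 replicate 4 turned it to -0.17 in edgeR, and leaving out wild-type replicate 3 gave 1.11. Its relative Crabp2, at 5 to 18 transcript counts in DdblGata1 and 8 to 11 in wild-type libraries, was not among the genes of the table.

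Rarb, on chromosome 14 (16430839 to 16819156, minus strand), encodes retinoic acid receptor beta and is itself a classical target of retinoic acid. Its shorter promoter is known for a response element made of a pair of hexamers in the same direction, spaced by 5 bases, and that element is shown here because Rarb is a classical direct target. The stretch chr14:16575507-16575536 (GRCm38.p6, minus strand, from the RefSeq promoter table) is printed 5′ to 3′, with the 17 bases of the hexamers and their spacer in capitals.
Rarb: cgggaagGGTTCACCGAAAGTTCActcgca
The capitals run from 53 to 37 bases before the RefSeq start of Rarb. The hexamers searched on both strands were AGGTCA and GGGTCA, with their variants AGTTCA and also GGTTCA, in any pair in the same direction; 32 of 32851 promoter windows (0.0974%; each 250 bases before to 50 after a start) held a pair spaced by 5 bases. Promoter windows were given for 7 of the 9 genes, 13 windows in all, and the Rarb window was the 1 among them with such a pair. A spacing of 2 bases was found in 88 windows (0.268%) and in 0 of the 13. A match describes letters and does not show binding.

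Transcripts that start beside this element carried most of Rarb. Rarb-201, whose GENCODE start lies 67 bases upstream of the RefSeq one and 14 bases before the element, was estimated at 11.0, 7.74 and 10.5 TPM in DdblGata1 replicates 4, 9 and 10, against 7.01, 9.86 and 10.5 TPM in wild-type replicates 1, 3 and 4. It held 77.8% to 89.9% of the gene's TPM in DdblGata1 and 87.7% to 92.0% in wild-type libraries. As a gene, Rarb had 19.0, 13.5 and 22.0 CPM in DdblGata1 replicates 4, 9 and 10, against 12.8, 19.5 and 18.7 CPM in wild-type replicates 1, 3 and 4. The groups overlapped widely, and the log2 fold change was 0.10 ± 0.25 (SE; 95% interval -0.47 to 0.67; edgeR adjusted p 0.897).

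Cyp26b1 (chromosome 6, 84571414 to 84593908, minus strand) encodes an enzyme that clears retinoic acid. It had 8.62, 13.3 and 24.5 CPM in DdblGata1 replicates 4, 9 and 10, against 11.8, 26.2 and 10.8 CPM in wild-type replicates 1, 3 and 4. One library of each genotype, DdblGata1 replicate 10 and wild-type replicate 3, stood above the rest. The log2 fold change was -0.07 ± 0.45 (SE; 95% interval -1.11 to 0.97; edgeR adjusted p 0.959) and ran from -0.59 without DdblGata1 replicate 10 to 0.45 without wild-type replicate 3. Its reads were assigned to Cyp26b1-205 and Cyp26b1-204, apart from Cyp26b1-203, which held 8.13% and 13.8% of the gene's TPM in wild-type replicates 3 and 4 and 0% in the other libraries. Cyp26b1-201 and Cyp26b1-202, which begin near the RefSeq start, had at most 0.0109%. The other CYP26 genes were nearly silent, with 0 to 7 transcript counts of Cyp26a1 in DdblGata1 and 0 to 1 in wild-type libraries, and 0 of Cyp26c1 in all 6. A count of 0 allows up to 3 counts in a library, for counting error only.

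**Figure D4:**
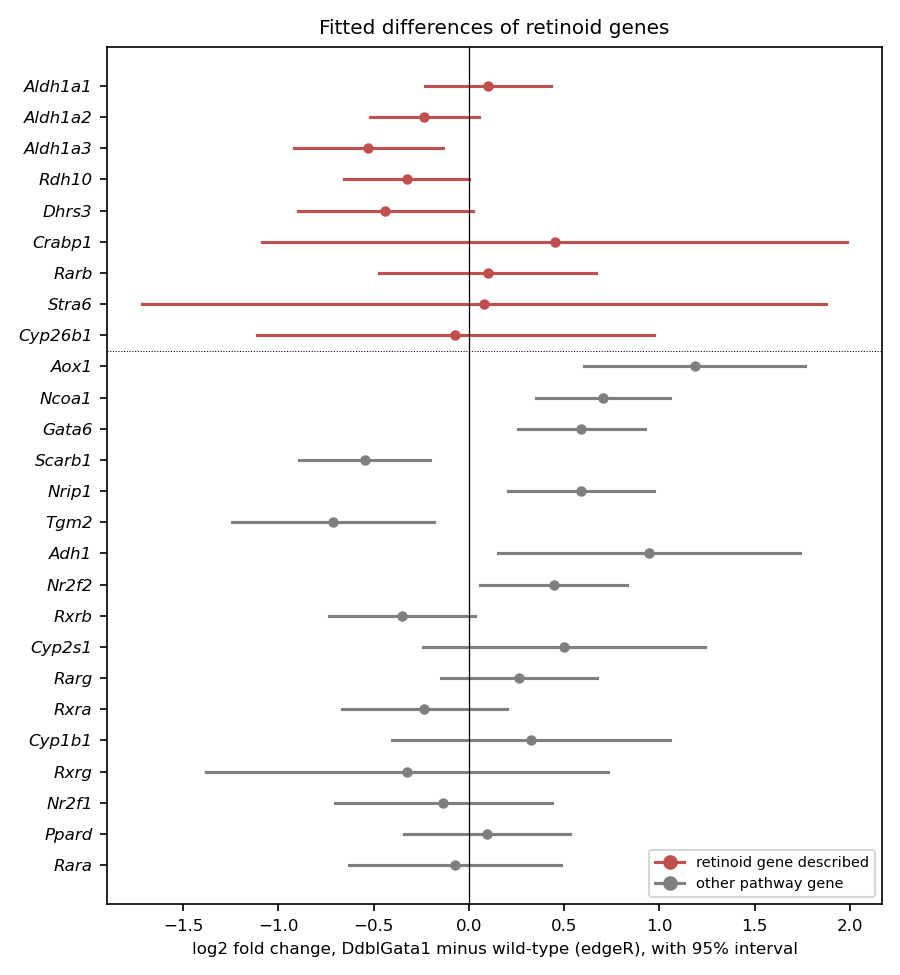
Fitted log2 fold change (DdblGata1 over wild-type, horizontal axis) with its 95% interval from edgeR for the 9 genes described (upper rows) and for other genes of the retinoid pathway (lower rows). Among the 9, the interval of Aldh1a3, -0.92 to -0.14, is the one that leaves out 0.

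Beyond the 9, 68 other genes of retinoid metabolism and response were listed, and 58 of them were in the table. In edgeR 0 of the 58 passed the adjusted test. At an unadjusted p under 0.05, 7 were higher and 3 lower, and 7 were higher and 4 lower without overlap between the groups. These shares lie near those of all genes on the lower side (4.23% and 7.34%) and above them on the higher side (6.03% and 8.98%), a difference that was not tested. The median log2 fold change was -0.02, with 29 genes above 0 and 29 below. DESeq2 passed 3 of the 58, all higher, where it passed 1.4% of all genes: Aox1 (adjusted p 0.00848), Ncoa1 (0.0149) and Gata6 (0.0466). Leaving out DdblGata1 replicate 9 or 10 or wild-type replicate 4 left 0 of the 58 called by DESeq2. Without DdblGata1 replicate 4 it called 6, without wild-type replicate 1 it called 1, and without wild-type replicate 3 it called 2. Aox1, Ncoa1, Gata6, Scarb1, Nrip1, Tgm2, Adh1 and Nr2f2 are described below because their unadjusted edgeR p was smallest. Their lack of overlap follows largely from that pick, so it is no further support.

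Aox1, an aldehyde oxidase able to act on retinaldehyde, had 18.7, 23.9 and 30.2 CPM in DdblGata1 replicates 4, 9 and 10, against 8.42, 13.4 and 10.2 CPM in wild-type replicates 1, 3 and 4. Its log2 fold change was 1.19 ± 0.25 (SE; edgeR adjusted p 0.384), opposite in sign to that of Aldh1a3 and Rdh10. The alcohol dehydrogenase Adh1, which can oxidise retinol, had 40.0, 39.1 and 75.9 CPM in DdblGata1, against 25.5, 37.5 and 17.5 CPM in wild-type libraries (replicates in the order above). It too was higher without overlap (log2 fold change 0.95 ± 0.34, SE; edgeR adjusted p 0.455). Scarb1, a lipoprotein receptor that also takes up carotenoids, had 30.2, 25.9 and 26.2 CPM in DdblGata1 and 41.3, 36.9 and 42.1 CPM in wild-type libraries (log2 fold change -0.55 ± 0.15; edgeR adjusted p 0.384).

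Among 10 storage and transport genes in the table, 9 had negative fold changes (median log2 value -0.31), where 50.7% of all genes did, and 1, Scarb1, had an unadjusted p under 0.05. One of them, Rbp2, a retinol carrier of enterocytes, had 28.8, 53.3 and 19.7 CPM in DdblGata1 and 196, 18.7 and 28.3 CPM in wild-type libraries. Its high value was in wild-type replicate 1, the library with the most epithelial marker RNA. Dgat1, which can esterify retinol, had 15.4, 14.5 and 8.49 CPM in DdblGata1 and 41.3, 13.6 and 16.2 CPM in wild-type libraries. Stra6l, a relative of Stra6, and Ttr, a retinol carrier of blood, were also highest in wild-type replicate 1, at 15.6 and 5.34 CPM. The part of epithelial RNA in the values of this list was not tested.

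The nuclear receptors were all measured, and 0 of 8 passed. Rara, Rarg, Rxra and Rxrb, the common retinoic acid receptors and their partners, had mean levels of 41.8, 51.4, 85.7 and 33.0 CPM in DdblGata1 and 44.0, 42.8, 101 and 42.2 CPM in wild-type libraries. Their log2 fold changes were -0.07, 0.26, -0.23 and -0.35. Rxrg (-0.32), Ppard (0.09) and Nr2f1 (-0.13) overlapped as well. Nr2f2, an orphan receptor of mesenchyme and veins, had 87.7, 62.8 and 65.3 CPM in DdblGata1 and 49.8, 55.4 and 53.4 CPM in wild-type libraries, higher without overlap (log2 fold change 0.44 ± 0.17, SE; edgeR adjusted p 0.461).

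The 6 coregulators listed all had positive log2 fold changes, at a median of 0.24, where 50.7% of all genes had a negative one. The coactivator Ncoa1 had 79.7, 86.5 and 106 CPM in DdblGata1 and 59.2, 54.3 and 53.7 CPM in wild-type libraries (log2 fold change 0.70 ± 0.15, SE; edgeR adjusted p 0.384). Nrip1, a corepressor that retinoic acid is known to induce, had 59.3, 52.9 and 65.0 CPM in DdblGata1 and 32.5, 43.0 and 42.2 CPM in wild-type libraries (0.59 ± 0.17; adjusted p 0.397 by edgeR). Both were higher without overlap. So was Ncor1, with 160, 150 and 177 CPM in DdblGata1 and 112, 140 and 147 CPM in wild-type libraries (0.29 ± 0.15; adjusted p 0.533 by edgeR). That made 3 of the 6, where 8.98% of all genes were higher without overlap.

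Known targets of retinoic acid did not share a direction: 9 of 15 in the table had a log2 fold change above 0 and 6 below (median 0.06). Tgm2, a transglutaminase that retinoic acid induces in several cell types, had 318, 176 and 198 CPM in DdblGata1 and 361, 371 and 404 CPM in wild-type libraries (log2 fold change -0.71 ± 0.23, SE; edgeR adjusted p 0.435). Gata6, a transcription factor of gut endoderm and mesenchyme, had 49.1, 51.8 and 58.4 CPM in DdblGata1 and 33.5, 38.7 and 33.7 CPM in wild-type libraries (0.59 ± 0.14; edgeR adjusted p 0.384). The groups did not overlap for either gene, and the directions were opposite. Cyp1b1 and Cyp2s1, which were listed with the CYP26 genes, overlapped between the groups (log2 fold changes of 0.33 and 0.50).

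Summed marker levels of some other cell types differed between the genotypes, with 0 markers passing the adjusted edgeR test. The 6 pericyte markers, 5 of them in the table, summed to 559 to 602 TPM in DdblGata1 and 717 to 940 TPM in wild-type libraries, lower without overlap, as were Rdh10, Aldh1a2 and Aldh1a3. Of the 5, 4 were lower at an unadjusted edgeR p under 0.05, as were 4.23% of all genes. Without overlap, 4 of the 5 were lower, as were 7.34% of all genes. The 8 smooth muscle markers summed to 5881 to 8962 TPM in DdblGata1 and 8364 to 13186 TPM in wild-type libraries, which overlapped. All 8 had a negative log2 fold change, at a median of -0.75. Of them, 6 were lower at an unadjusted edgeR p under 0.05, as were 4.23% of all genes. DESeq2 passed 2 of the 8, both lower, where it passed 1.4% of all genes. The 12 genes that dissociation induces were higher without overlap, at 5661 to 6823 TPM in DdblGata1 and 3858 to 4197 TPM in wild-type libraries. Of these 12, 10 had a positive and 2 a negative log2 fold change. At an unadjusted edgeR p under 0.05, 8 were higher, as were 6.03% of all genes. Taken singly, 8 were higher without overlap, as were 8.98% of all genes. DESeq2 passed 2 of the 12, and 1 each of the fibroblast, mesothelial and endothelial markers, all higher. The 8 endothelial markers summed to 52.7 to 78.8 TPM in DdblGata1 and 33.8 to 41.6 TPM in wild-type libraries, but 4 had a positive and 4 a negative log2 fold change (median -0.02). Tek made up much of that sum, with 34.03, 36.93 and 59.85 TPM in DdblGata1 replicates 4, 9 and 10, against 11.06, 21.04 and 19.94 TPM in wild-type replicates 1, 3 and 4. The part of these in the values of the retinoid genes was not tested.

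For the 3 genes that varied most over the 6 libraries among those with a mean log2 CPM of at least 1, which leaves out Crabp1, the other genes with the nearest pattern were sought among 12834 genes, by the root mean square difference of log2 CPM scaled to unit SD. The Stra6 pattern, high in DdblGata1 replicate 4 and wild-type replicates 3 and 4, was nearest to that of Aebp1 (difference 0.0239), Arsa (0.0798) and Zfp526 (0.0836). Cyp26b1, high in DdblGata1 replicate 10 and wild-type replicate 3, was nearest to Pdzrn3 (0.138), Slc25a17 (0.155) and Exoc7 (0.157). Dhrs3, low in DdblGata1 replicates 9 and 10 and barely more variable than Aldh1a3 (SD 0.338 and 0.337 on the log2 scale), was nearest to S1pr3 (0.0435), Mfn2 (0.0951) and Fut4 (0.105). With 6 libraries and this many genes, some close matches are found for any pattern. The patterns are those of the deposited, length-scaled gene counts. On summed transcript counts, Stra6 in DdblGata1 replicate 4 (137) was below wild-type replicates 3 (159) and 4 (204). Dhrs3 was then low in DdblGata1 replicate 4 (881) as in DdblGata1 replicates 9 (915) and 10 (864). Matches on those sums were not sought.

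**Figure D5:**
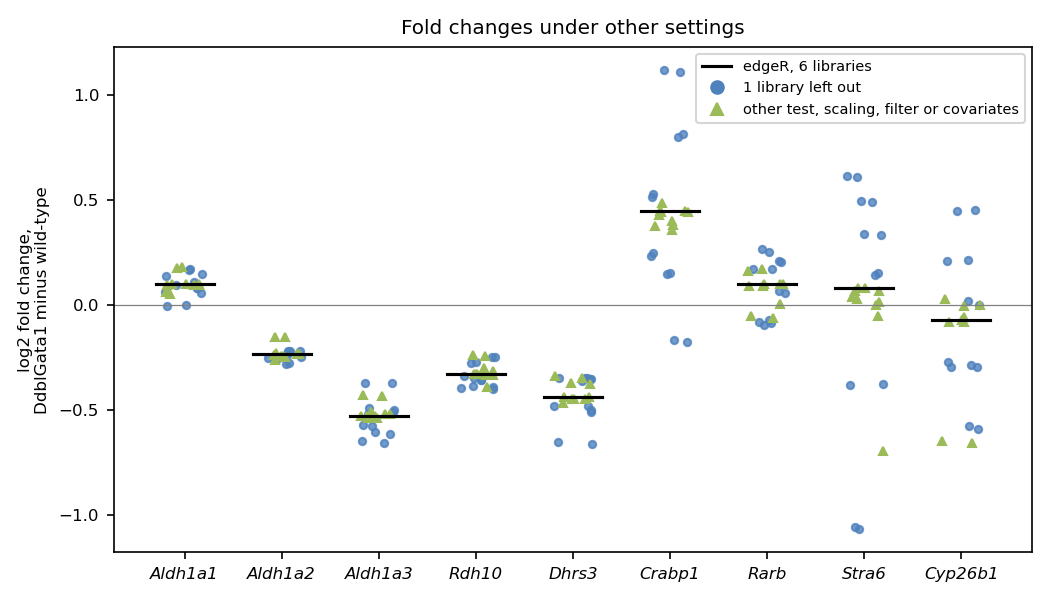
Log2 fold change (DdblGata1 over wild-type) of each of the 9 genes with all 6 libraries in edgeR (black bar), with 1 library left out (circles, edgeR and DESeq2) and under another test, scaling, filter or covariates (triangles). Aldh1a2, Aldh1a3, Rdh10 and Dhrs3 stay below 0 in all 22 alternatives, and Stra6, Cyp26b1, Rarb, Crabp1 and Aldh1a1 cross 0 in 1 or more.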

How the data were processed

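Per the labels, stranded libraries were made from total RNA of sorted cells. Tools named in the submitters' processing notes are bcl2fastq 2.2, kallisto, DESeq2 and R 4.2.2, and the genome builds are GRCm38.p6 and mm10; the role of each is not stated. Whole-number estimated counts (expected counts) per gene were deposited in 1 table. Of its values, 99.7% equalled the deposited TPM, summed per gene and multiplied by mean effective length and the library's total, to within 1% plus 1 count. Every gene in it has at least 10 counts in 3 libraries. The deposited transcript files give estimated counts, TPM and other values (lengths in bases) for 115270 transcripts, of which GENCODE M21 placed 113580. The deposited sample sheet gives 2 surrogate variables as a score and a size factor as a ratio per library, of unstated method.

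The genotypes were set against each other in edgeR 4.0.16 under R 4.3.3 (quasi-likelihood, robust, TMM factors, filterByExpr, Benjamini-Hochberg over all genes, no covariate), which was tested on simulated data. Intervals are 95% and use the moderated degrees of freedom. Alternatives were DESeq2 1.42.0, limma 3.58.1 (voom, and log2 of TPM with pseudocounts of 1 and 0.1), RLE scaling, a filter of 1 CPM in 3 libraries, no filter, unscaled transcript sums, the surrogate variables as covariates, and each library left out. DESeq2 with each library left out was added after the data were seen, as were unadjusted p-values and overlap under these settings. The 9 genes, the lists and the tests were chosen with earlier results of these data known. Named beside the 9 are the 8 other pathway genes of smallest p with a mean log2 CPM of at least 1. Also named are the genes listed with the CYP26 genes, the nuclear receptors and the nearest patterns. Crabp2, Rbp2, Dgat1, Stra6l, Ttr, Ncor1, Tek, Wt1, Krt19, the genes at 0 and the values of Thy1, Pdpn and Col3a1 were added after their values were seen.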

Additional observations from a re-analysis of the deposited data

How the results depend on the processing

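Aldh1a2, Aldh1a3, Rdh10 and Dhrs3 had a negative log2 fold change in all 22 alternatives, from -0.28 to -0.15, -0.66 to -0.37, -0.40 to -0.24 and -0.66 to -0.34. Aldh1a3 had an unadjusted p under 0.05 in 17 of them. Its adjusted p ran from 0.0291, in DESeq2 with the surrogate variables, to 0.899. DESeq2 called 214 genes and 3 other pathway genes, and with the surrogate variables 449 genes, 3 other pathway genes and 1 of the 9. Of the 9, those lower at an unadjusted p under 0.05 were 2 in DESeq2 with and without surrogate variables, 2 in limma-voom, 3 on unscaled sums, 4 in edgeR with surrogate variables and 0 in limma on either TPM scale. With 1 library left out, edgeR called 0 to 1 genes in all, and 0 to 2 of the 9 were lower at that p. DESeq2 called 1025, 84 and 43 genes without DdblGata1 replicates 4, 9 and 10, and 106, 239 and 165 without wild-type replicates 1, 3 and 4. Of these, 0 to 1 were among the 9 (Dhrs3, without DdblGata1 replicate 4). Other pathway genes called were 6 without DdblGata1 replicate 4, and 1 and 2 without wild-type replicates 1 and 3. DESeq2 had 0 to 2 of the 9 lower at that p.

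The sign of the remaining 5 turned under some setting, with adjusted p above 0.05 wherever one was given (DESeq2 gave none for Crabp1 without DdblGata1 replicate 4). In edgeR with 1 library left out, Aldh1a1 ran from -0.0053 to 0.17, Crabp1 from -0.17 to 1.11, Rarb from -0.093 to 0.25, Stra6 from -1.06 to 0.61 and Cyp26b1 from -0.59 to 0.45. DESeq2 gave, without DdblGata1 replicate 4, -0.18 for Crabp1, -1.07 for Stra6 and 0.21 for Cyp26b1. It gave 0.021 for Cyp26b1 without DdblGata1 replicate 9 and -0.071 for Rarb without DdblGata1 replicate 10. Without wild-type replicate 1 it gave -0.082 for Rarb and -0.37 for Stra6, and without wild-type replicate 3 it gave 0.45 for Cyp26b1. Stra6 was at -0.049 in limma-voom and -0.69 on unscaled sums. Cyp26b1 was at 0.029 on unscaled sums and 0.0014 on log2(TPM + 1). With the surrogate variables Rarb was at -0.052 in edgeR and -0.063 in DESeq2, and Cyp26b1, keeping its sign, at -0.66 with an unadjusted p of 0.0149 in DESeq2. The cause was not tested. No paired analysis was possible because the genotypes share the single replicate number 4. Crabp1 had the fewest counts of the 9, 14 to 54 a library, so counting error weighs most there.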
